A study of Rattus norvegicus with 47 samples.

Results

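Expression of 9 genes of the hepatic bile acid pathway was followed through chemically induced rat liver lesions. The genes were Cyp7a1, Cyp8b1 and Cyp27a1 (synthesis), Slc27a5 and Baat (conjugation), Slc10a1 (uptake), Abcb11 (export), and Nr1h4 and Nr0b2 (control by nuclear receptors). They were chosen by symbol, with earlier results of these data known, from a probe annotation of the array. The annotation holds all 9 of them with 1 probe set each, among 14217 genes measured. The deposited values are log2 expression values, so a difference of 1 is a fold of 2, and they compare arrays for the same gene, not genes with each other.

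Male Wistar rats aged 4 weeks received N-nitrosomorpholine, a liver carcinogen, once at 250 mg/kg, and after 3 weeks of recovery drank phenobarbital at 50 mg/kg per day until at most 17 months had passed. Lesions were set against the surrounding liver of the same rats, which had both treatments too. The frozen tissue comprised 5 nodules from 3 rats, 6 adenomas from 2 rats, 4 carcinomas from 3 rats, 4 carcinomas labelled as carrying a β-catenin mutation from 3 rats, and 7 pieces of surrounding liver from 5 rats. The formalin-fixed, paraffin-embedded (FFPE) tissue, microdissected with a laser per the labels' protocols, comprised 9 foci from 3 rats, 5 adenomas from 3 rats and 4 pieces of surrounding liver from 4 rats. In all, 44 arrays from 7 rats were compared. Lesions of the same rat share their animal, so the rat was kept as a term of the model, and n counts lesions. The sources used here do not say how regions were picked for dissection. In bulk tissue, fewer cells of a type and less RNA per cell cannot be told apart.

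Label fields disagree in several places. β-Catenin carcinoma replicate 1 lacks the mutation in its source name, and FFPE adenoma replicate 4 is called surrounding tissue there. Both were kept under their group labels, and changes fitted without them are also given for several genes. For the 4 arrays titled as rat 21 (1 surrounding, 2 carcinomas and 1 β-catenin carcinoma), another field gives 4 different animal numbers. The title and the labelled control set, which both name rat 21, were followed, and the number of rats behind the carcinoma groups rests on that. All groups carried the hepatocyte marker albumin (Alb), which lay between 14.95 and 15.13 log2 in the frozen arrays compared and between 14.15 and 14.58 in the FFPE arrays. Other hepatocyte markers, some of which fell in tumours, are given below. Array medians lay between 5.49 and 5.59 in frozen and between 5.58 and 5.68 in FFPE tissue, and the 2 preparations were fitted apart.

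Bile acids are made from cholesterol in hepatocytes. Cyp7a1 catalyses the rate-limiting first step of the classical route, Cyp8b1 adds the 12α-hydroxyl group that makes cholic acid, and Cyp27a1, a mitochondrial sterol 27-hydroxylase, oxidises the side chain and opens the alternative route. Slc27a5, the bile acyl-CoA synthetase, activates bile acids, including those returning from the gut, and Baat joins them to taurine or glycine. Slc10a1 (NTCP) takes conjugated bile acids up from the blood with sodium, and Abcb11 (BSEP) pumps them across the canalicular membrane into bile. Nr1h4 (FXR) is the nuclear receptor that senses bile acids. It induces Abcb11 and Nr0b2 (SHP), a receptor without a DNA-binding domain that represses Cyp7a1 and Cyp8b1.

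Promoter windows are shown for Slc27a5, Slc10a1 and Cyp8b1, the members whose falls in lesions were largest. Each runs from 250 bases before to 50 bases after the annotated start, 5′ to 3′ on the gene's own strand, from RefSeq on GRCr8, and the capitals mark the bases from the start on. They lie at chr1:82699286-82699585 on the minus strand (Slc27a5), chr6:106357895-106358194 on the minus strand (Slc10a1) and chr8:130457543-130457842 on the minus strand (Cyp8b1).
Slc27a5: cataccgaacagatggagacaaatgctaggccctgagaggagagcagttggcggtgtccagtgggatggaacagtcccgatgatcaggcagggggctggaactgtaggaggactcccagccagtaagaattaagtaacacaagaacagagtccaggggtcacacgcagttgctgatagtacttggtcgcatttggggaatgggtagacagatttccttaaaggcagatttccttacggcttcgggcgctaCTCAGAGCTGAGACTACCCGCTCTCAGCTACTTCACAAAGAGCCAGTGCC
Slc10a1: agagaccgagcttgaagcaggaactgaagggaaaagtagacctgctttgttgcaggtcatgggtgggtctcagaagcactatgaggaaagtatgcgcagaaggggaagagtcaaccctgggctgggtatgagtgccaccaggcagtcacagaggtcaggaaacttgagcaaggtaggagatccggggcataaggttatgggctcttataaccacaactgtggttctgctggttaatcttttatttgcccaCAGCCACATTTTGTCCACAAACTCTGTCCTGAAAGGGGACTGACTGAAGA
Cyp8b1: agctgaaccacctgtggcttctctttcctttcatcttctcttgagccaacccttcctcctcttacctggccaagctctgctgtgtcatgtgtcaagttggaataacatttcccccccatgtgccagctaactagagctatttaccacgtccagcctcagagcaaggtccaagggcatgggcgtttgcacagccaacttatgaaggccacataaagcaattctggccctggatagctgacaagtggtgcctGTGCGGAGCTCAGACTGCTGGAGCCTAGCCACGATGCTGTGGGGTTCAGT
Promoter windows were available for 6 of the 9 members, the other 3 windows being those of Cyp27a1, Baat and Nr0b2. None was available for Cyp7a1, Abcb11 and Nr1h4. Their windows were searched on both strands for the inverted repeat bound by FXR (AGGTCA and TGACCT with 1 base between), for the direct repeat of AGGTCA with 1 base between, and for the single element CAAGGTCA of the liver receptor Nr5a2, which overlaps AGGTCA. None of the 6 windows held either repeat, exactly or with 1 mismatch in either copy. Such repeats are rare in windows of this length: of 33469 rat promoters, 0.0269% held the inverted repeat exactly and 0.114% with the mismatch, and 0.0538% and 0.439% held the direct repeat. The single element was in 1.52% of all promoters and, among the members, in that of Cyp27a1, on the reverse strand at bases -236 to -229 from the start. This stretch lies at chr9:83713282-83713318 on the plus strand, its start is not the outermost annotated start of the gene, and the capitals mark the element.
Cyp27a1: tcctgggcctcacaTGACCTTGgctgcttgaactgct
A match or its absence describes the letters of these windows.

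Across the 19 frozen and 14 FFPE lesions, the conjugation enzyme Slc27a5, the uptake transporter Slc10a1 and the export pump Abcb11 were below the surrounding liver of their own labelled control set in every lesion, 19 of 19 frozen and 14 of 14 FFPE. Baat was below in 18 of 19 and 14 of 14, Cyp8b1 in 16 of 19 and 14 of 14, Cyp7a1 in 15 of 19 and 12 of 14, and Cyp27a1 in 15 of 19 and 13 of 14. The receptor Nr1h4 was below in 17 of 19 frozen and 9 of 14 FFPE lesions. Its target Nr0b2 was below in 12 of 19 and 4 of 14. These are counts of single lesions against 1 control array each, without a test. Lesions of the same control set share that array, so the counts are not independent. The share of all genes below control in every lesion was not counted.

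**Figure D1:**
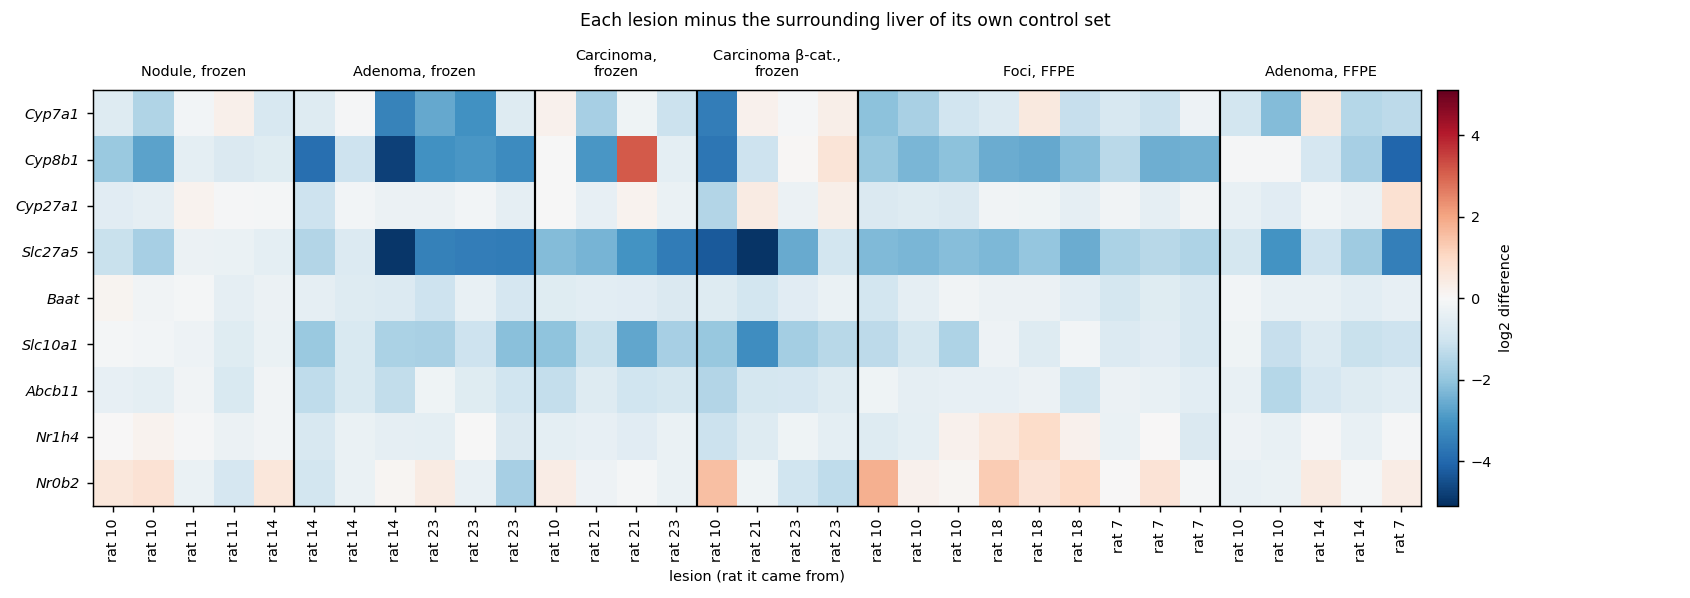
Difference in log2 expression between each of the 33 lesions (columns, with the rat each came from) and the surrounding liver array of its own control set, for the 9 genes (rows); blue is lower in the lesion and red higher. Slc27a5, Slc10a1 and Abcb11 are blue in every column, and the strongest red Cyp8b1 cell is the carcinoma that lay 3.13 above its control.

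In the fitted comparison (limma with the rat as a term, Benjamini-Hochberg adjustment over all 14217 genes, called at an adjusted p under 0.05), none of the 9 genes was called in nodules, 7 fell in frozen adenomas, 5 in carcinomas and 5 in β-catenin carcinomas. The share of all genes called lower in the same comparisons was 0.0352%, 9.57%, 6.91% and 9.58%. In FFPE tissue, 4 of the 9 fell in foci and 2 in adenomas, where 1.36% and 0.872% of all genes were lower. No member was called higher than surrounding liver in any of the 6 comparisons. The median log2 change of the 9 members was -0.26 in nodules, -0.85 in adenomas, -0.55 in carcinomas and -0.73 in β-catenin carcinomas, with medians of all genes of 0.0169, 0.0217, -0.0182 and -0.00978. In FFPE foci and adenomas the members' medians were -0.59 and -0.72, and those of all genes -0.0223 and -0.0213. Comparisons of 1 preparation share the same surrounding arrays. Because the members were chosen with earlier results of these data known, the values over all genes are given for scale, without a test. Log2 changes are given below with the standard error of the fit.

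**Figure D2:**
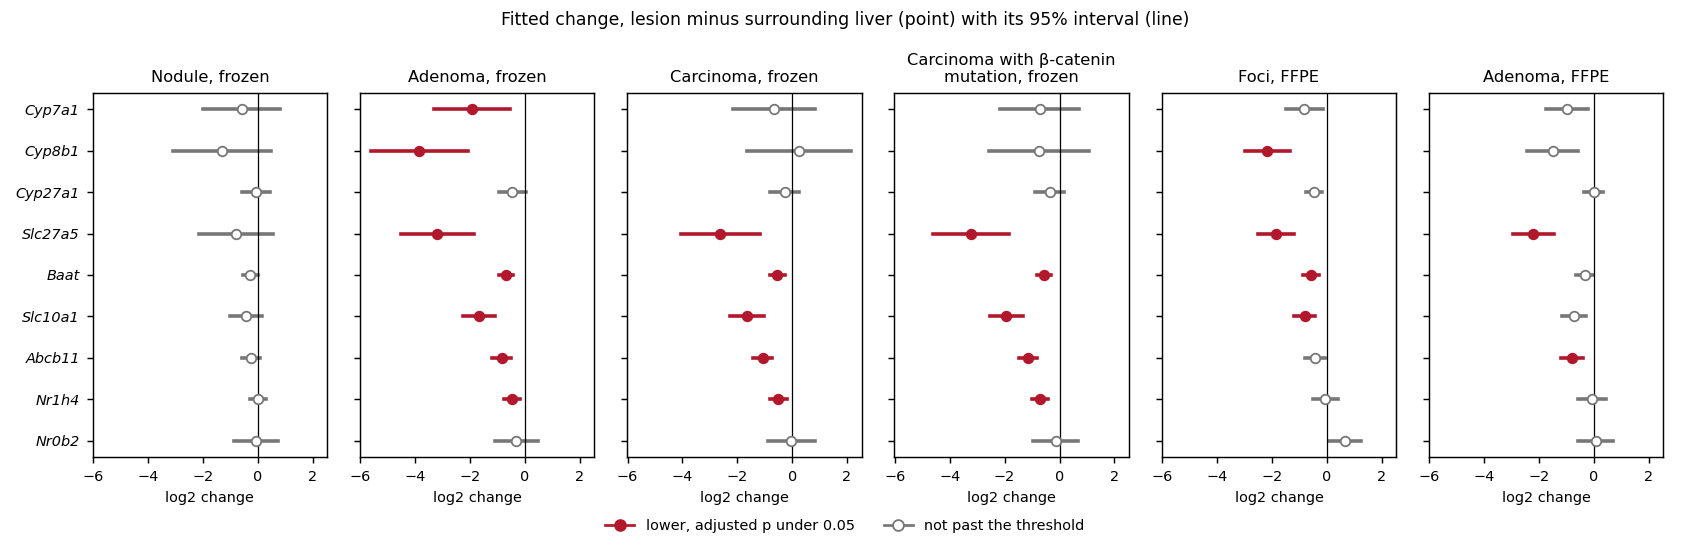
Fitted log2 change of each gene, lesion minus surrounding liver, with its 95% interval, in 6 comparisons. Filled points passed the threshold, all of them to the left of 0: 7 genes in frozen adenomas, 5 in each kind of carcinoma, 4 in foci, 2 in FFPE adenomas and none in nodules.

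Slc27a5 fell in every lesion kind but the nodules. In frozen adenomas it ran from 7.13 to 11.38 log2 with a median of 8.80, in carcinomas it read 10.24, 9.46, 8.80 and 8.36, and in β-catenin carcinomas 8.15, 6.85, 9.36 and 10.97. Surrounding liver ran from 11.83 to 12.99 with a median of 12.30. The 3 tumour groups did not overlap with surrounding liver. The fall was 9.17-fold in adenomas (-3.20 ± 0.64, adjusted p = 0.00119), 6.14-fold in carcinomas (-2.62 ± 0.69, adjusted p = 0.0163) and 9.33-fold in β-catenin carcinomas (-3.22 ± 0.66, adjusted p = 0.002). The call in carcinomas was lost with the labelled control set, not the rat, as the block (-2.68, adjusted p = 0.057), without carcinoma replicate 4 and without surrounding replicate 5. The nodules read 11.85, 11.29, 12.55, 12.50 and 11.59, within reach of surrounding liver, and their change of -0.79 ± 0.65 did not pass the test (adjusted p = 0.668).

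In FFPE tissue Slc27a5 was low in the smallest lesions as well. Foci ran from 8.17 to 10.50 log2 with a median of 9.55, FFPE adenomas read 10.88, 8.72, 9.17, 8.42 and 8.42, and surrounding liver read 11.78, 10.23, 10.68 and 11.92. The foci overlapped with the surrounding array of rat 14 and the adenomas with those of rats 14 and 18, while each lesion was below its own control. The fall was 3.60-fold in foci (-1.85 ± 0.32, adjusted p = 0.000713) and 4.62-fold in FFPE adenomas (-2.21 ± 0.36, adjusted p = 0.000385). Without FFPE adenoma replicate 4 the change in FFPE adenomas was -2.18 (adjusted p = 0.00135).

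Baat, which acts after Slc27a5, fell less. It ran from 11.93 to 12.64 log2 in frozen adenomas with a median of 12.14, and read 12.05, 12.02, 11.98 and 12.26 in carcinomas and 12.00, 11.65, 12.41 and 12.67 in β-catenin carcinomas. Surrounding liver ran from 12.38 to 13.01 with a median of 12.65. Only the carcinomas stood clear of surrounding liver. The changes were -0.70 ± 0.12 in adenomas (adjusted p = 0.000482), -0.55 ± 0.13 in carcinomas (adjusted p = 0.011) and -0.57 ± 0.13 in β-catenin carcinomas (adjusted p = 0.0041). In carcinomas the call was lost without carcinoma replicate 1 and without carcinoma replicate 4. Foci ran from 10.32 to 11.14 with a median of 10.54, against 11.31, 11.68, 10.85 and 11.31 in FFPE surrounding liver, a fall of 1.50-fold (-0.59 ± 0.14, adjusted p = 0.0145) that missed the threshold without the intensity trend of the model (adjusted p = 0.133) and without surrounding replicate 1 or 4. FFPE adenomas, at 11.18, 10.92, 11.29, 11.13 and 10.88, did not pass the test (-0.34 ± 0.15, adjusted p = 0.363).

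Slc10a1 fell in all 3 frozen tumour groups. Adenomas ran from 9.96 to 11.24 log2 with a median of 10.42, carcinomas read 10.26, 10.88, 9.33 and 10.47, and β-catenin carcinomas 10.35, 8.84, 10.43 and 10.75. Surrounding liver held a narrow range of 11.85 to 12.30 with a median of 12.03, above every tumour. The fall was 3.21-fold in adenomas (-1.68 ± 0.28, adjusted p = 0.000246), 3.10-fold in carcinomas (-1.63 ± 0.30, adjusted p = 0.00142) and 3.84-fold in β-catenin carcinomas (-1.94 ± 0.29, adjusted p = 0.000116), and every alternative fit kept these 3 calls. The nodules, at 11.76, 11.70, 11.71, 11.39 and 11.69, also lay just below all surrounding arrays, but their change of -0.42 ± 0.28 was within the error of the fit (adjusted p = 0.565).

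In FFPE tissue Slc10a1 ran from 9.72 to 10.72 log2 in foci with a median of 10.20 and read 11.06, 10.09, 11.24, 10.82 and 9.78 in adenomas, against 11.28, 11.94, 10.84 and 10.86 in surrounding liver. All foci lay below all surrounding arrays, and the adenomas overlapped with them. The foci fell by 0.81 ± 0.19 on the log2 scale (1.75-fold, adjusted p = 0.0157), a call that was lost without the intensity trend (adjusted p = 0.109) and without surrounding replicate 1 or 4. The adenomas differed by -0.72 ± 0.21 (adjusted p = 0.0882). This Slc10a1 change was called in a fit of these 2 groups alone (-0.88, adjusted p = 0.0473), without adenoma replicate 1 (-0.95, adjusted p = 0.00484) and without surrounding replicate 3 (-0.83, adjusted p = 0.049).

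Abcb11, the export pump, fell in all 3 frozen tumour groups and in FFPE adenomas. Carcinomas read 9.40, 9.82, 9.50 and 10.19 log2 and β-catenin carcinomas 9.10, 9.60, 10.22 and 10.41, all below the surrounding range of 10.50 to 11.42 (median 11.09). Frozen adenomas ran from 10.13 to 11.05 with a median of 10.44 and overlapped with it. The fall was 2.11-fold in carcinomas (-1.08 ± 0.17, adjusted p = 0.000585) and 2.22-fold in β-catenin carcinomas (-1.15 ± 0.16, adjusted p = 8.67e-05). In adenomas it was -0.85 ± 0.16 (adjusted p = 0.000702), and without the rat in the model -0.47 (adjusted p = 0.121).

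FFPE adenomas read 9.90, 8.80, 9.58, 9.76 and 10.03 log2 for Abcb11, below every FFPE surrounding array (10.26, 10.43, 10.45 and 10.58), and fell by 0.80 ± 0.19 (1.74-fold, adjusted p = 0.0244). This call was lost in 8 of 27 alternatives, namely without the rat (adjusted p = 0.0577), without the intensity trend (adjusted p = 0.136), with these 2 groups alone (adjusted p = 0.151), and without adenoma replicate 2 or any of the 4 surrounding arrays. It held without FFPE adenoma replicate 4 (-0.83, adjusted p = 0.038). Foci ran from 9.53 to 10.29 with a median of 10.05 and did not pass the test (-0.43 ± 0.18, adjusted p = 0.248). Nodules read 10.24, 10.17, 10.97, 10.36 and 11.26 and overlapped with surrounding liver (-0.24 ± 0.16, adjusted p = 0.562).

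Cyp8b1 had the widest range of any member over the frozen arrays compared, 6.15 to 13.15 log2. Frozen adenomas ran from 6.15 to 9.84 log2 with a median of 6.51, and 5 of the 6 were at or below 7.06, whereas surrounding liver ran from 9.55 to 10.91 with a median of 10.13. Carcinomas read 10.33, 7.03, 13.15 and 9.90, and β-catenin carcinomas 6.65, 8.95, 10.43 and 11.04, so that both groups reached above and below surrounding liver. Carcinoma replicate 3, at 13.15, was the highest of all arrays and lay 3.13 above its own control, while carcinoma replicate 2 of the same rat differed from that control by -2.98. Adenomas fell 14.5-fold against surrounding liver (-3.85 ± 0.85, adjusted p = 0.00245), a call kept in all 35 alternatives. Carcinomas changed by 0.24 ± 0.91 (adjusted p = 0.912) and β-catenin carcinomas by -0.74 ± 0.88 (adjusted p = 0.63). These estimates moved across 0 with single arrays: without carcinoma replicate 3 the change in carcinomas was -0.62 (adjusted p = 0.692), and without β-catenin carcinoma replicate 1 that in β-catenin carcinomas was 0.22 (adjusted p = 0.92).

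In foci Cyp8b1 ran from 7.82 to 9.07 log2 with a median of 8.24, below every FFPE surrounding array (10.98, 11.88, 10.43 and 10.42). It fell 4.49-fold there (-2.17 ± 0.40, adjusted p = 0.00134), the largest fall of a member in foci, and was called in all 27 alternatives. FFPE adenomas read 10.93, 10.93, 11.01, 10.20 and 6.38. Replicate 5 differed from its control by -4.04 and the other 4 by -0.05 to -1.68, and the change of -1.51 ± 0.45 did not pass the test (adjusted p = 0.0818). Nodules read 8.12, 7.28, 9.62, 9.39 and 10.28, the 2 lowest being those of rat 10 (-1.30 ± 0.86, adjusted p = 0.561).

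Cyp7a1 fell in frozen adenomas. They ran from 7.89 to 11.58 log2 with a median of 9.34, and surrounding liver from 10.98 to 11.79 with a median of 11.33. The adenomas split: 3 of the 6 differed from their controls by -2.63 to -3.39 and the other 3 by less than 1. The fall was 3.82-fold (-1.93 ± 0.67, adjusted p = 0.0384), and it missed the threshold in 10 of 35 alternatives, namely the control set as the block (adjusted p = 0.197), a fit of these 2 groups alone (adjusted p = 0.128), and leaving out surrounding replicate 1, 2, 4, 6 or 7 or adenoma replicate 3, 4 or 5.

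Carcinomas read 11.88, 9.58, 11.04 and 9.90 log2 for Cyp7a1, and β-catenin carcinomas 8.14, 11.48, 10.92 and 11.27, neither past the test (-0.65 ± 0.71 and -0.73 ± 0.69, adjusted p = 0.631 and 0.528). The value of 8.14 is β-catenin carcinoma replicate 1, the array whose labels differ, and without it the change was 0.46 (adjusted p = 0.698). Nodules read 11.15, 10.25, 11.19, 11.60 and 10.81 (-0.58 ± 0.67, adjusted p = 0.779). Foci ran from 7.70 to 9.78 with a median of 8.67, and FFPE adenomas read 9.86, 8.58, 10.30, 8.41 and 8.09, against 10.78, 9.85, 8.88 and 9.43 in FFPE surrounding liver. Neither passed the test (-0.81 ± 0.33 and -0.99 ± 0.37, adjusted p = 0.246 and 0.231). Without FFPE adenoma replicate 4 the Cyp7a1 change in FFPE adenomas was -0.78 (adjusted p = 0.436).

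Cyp27a1 was not called in any comparison with surrounding liver. Frozen adenomas, from 10.43 to 11.35 log2 with a median of 11.14, lay just below the surrounding range of 11.37 to 12.10 (median 11.47), and their change of -0.45 ± 0.24 was not called with the rat in the model (adjusted p = 0.176), while without it -0.58 was (adjusted p = 0.0355). Foci, from 10.31 to 10.75 with a median of 10.67, also lay just below FFPE surrounding liver, at 11.41, 11.12, 10.78 and 10.89 (-0.47 ± 0.15, adjusted p = 0.0943). Nodules, carcinomas and β-catenin carcinomas, from 11.38 to 12.04, 10.93 to 11.80 and 10.32 to 11.79, overlapped with surrounding liver, as did FFPE adenomas, from 10.83 to 11.67. In β-catenin carcinomas the Cyp27a1 change was -0.36 with and 0.13 without replicate 1 (adjusted p = 0.359 and 0.744).

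The receptor Nr1h4 fell modestly in the 3 frozen tumour groups. Adenomas ran from 9.14 to 9.87 log2 with a median of 9.57, carcinomas read 9.32, 9.35, 9.23 and 9.43, and β-catenin carcinomas 8.70, 9.14, 9.53 and 9.24, against 9.75 to 10.19 with a median of 9.83 in surrounding liver. Both carcinoma groups lay below all surrounding arrays and the adenomas overlapped with them. The fall was 1.39-fold in adenomas (-0.47 ± 0.13, adjusted p = 0.0133), 1.42-fold in carcinomas (-0.50 ± 0.14, adjusted p = 0.0254) and 1.65-fold in β-catenin carcinomas (-0.72 ± 0.14, adjusted p = 0.00113). With the control set as the block the first 2 calls were lost (adjusted p = 0.0569 and 0.11). In adenomas it was also lost in a fit of these 2 groups alone (-0.42, adjusted p = 0.138). The call in β-catenin carcinomas held without β-catenin carcinoma replicate 1 (-0.54, adjusted p = 0.0122). Leaving out carcinoma replicate 1, 3 or 4, or surrounding replicate 5, also ended the call in carcinomas, and leaving out surrounding replicate 4 or adenoma replicate 6 that in adenomas.

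The 5 nodules, from 9.68 to 10.02 log2, overlapped with surrounding liver in Nr1h4 (0.02 ± 0.13, 95% interval -0.26 to 0.30, adjusted p = 0.98). FFPE foci, from 7.95 to 8.84 with a median of 8.45, and FFPE adenomas, from 8.23 to 9.11, overlapped with FFPE surrounding liver, at 8.59, 9.15, 7.89 and 8.77 (-0.06 ± 0.22 and -0.07 ± 0.25, adjusted p = 0.943 and 0.968). The intervals, from -0.52 to 0.39 and from -0.57 to 0.44, hold the changes fitted in frozen adenomas and carcinomas.

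Nr0b2 was not called in any comparison, although its single arrays differed by several fold. Frozen adenomas ran from 7.18 to 9.43 log2 with a median of 7.97, carcinomas read 8.55, 8.30, 8.47 and 8.62, and β-catenin carcinomas 9.71, 8.36, 7.95 and 7.68, around a surrounding range of 7.73 to 9.02 with a median of 8.57. Foci ran from 8.44 to 10.18 with a median of 8.63 and were above their own controls in 8 of 9 cases, against 8.35, 8.50, 7.87 and 8.60 in FFPE surrounding liver, a difference of 0.67 ± 0.28 that did not pass the test (adjusted p = 0.258). FFPE adenomas read 7.97, 8.01, 8.94, 8.41 and 8.98, and nodules 8.32, 8.47, 8.27, 7.77 and 8.69. In β-catenin carcinomas the Nr0b2 change was -0.13 with and -0.79 without replicate 1, the array at 9.71 (adjusted p = 0.157 without it).

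**Figure D3:**
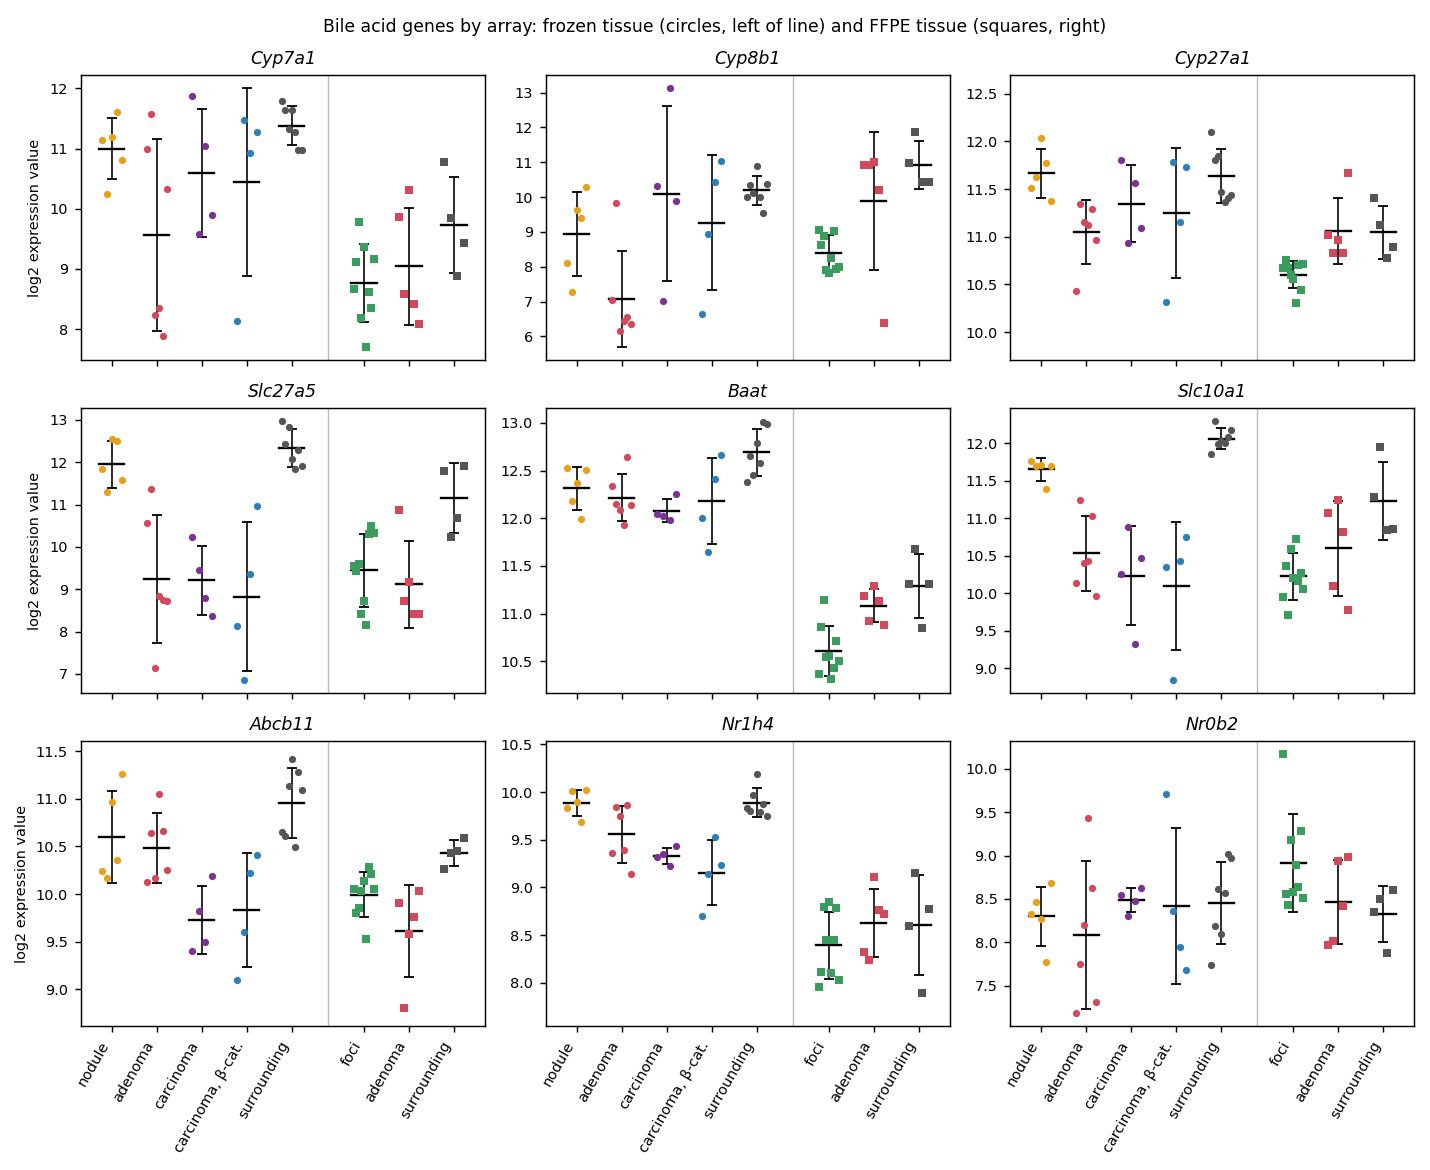
Log2 expression of the 9 genes in each array (points), with the group mean (bar) and SD (whisker): frozen tissue left of the line and FFPE tissue right of it, lesions before surrounding liver. Slc10a1 shows the frozen tumours below a narrow surrounding range of 11.85 to 12.30, and Cyp8b1 the spread from 6.15 to 13.15.

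By group mean, surrounding liver stood first among the frozen groups for Cyp7a1, Cyp8b1, Slc27a5, Baat, Slc10a1, Abcb11 and, together with nodules, Nr1h4. The nodules followed it directly for 6 of these 7 genes, Cyp8b1 excepted. Steps between neighbours in that order that were wider than the larger SD of both groups were those of nodules below surrounding liver for Slc10a1 (0.41) and Baat (0.38), and those of adenomas below nodules for Slc27a5 (2.72), Cyp8b1 (1.87), Slc10a1 (1.12) and Nr1h4 (0.33). The other such step was that of β-catenin carcinomas below adenomas for Abcb11 (0.65). All other neighbours in the frozen order lay within their spread. These steps are between plain group means, without the rat: for Abcb11, carcinomas differed from adenomas by -0.75 in the fit without the rat and by -0.23 with it. In FFPE tissue the steps wider than the SD were those of foci below surrounding liver for Slc27a5 (1.71), Cyp27a1 (0.45) and Abcb11 (0.44), and that of foci below adenomas for Baat (0.48).

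Lesion kinds were also compared with each other. Only rat 23 gave both carcinomas without the mutation label and frozen adenomas. Between carcinomas and adenomas, Cyp8b1 alone of the members was called, 17.1-fold higher in carcinomas (4.10 ± 1.06, adjusted p = 0.042), where 1.17% of all genes were higher. The groups overlapped: the carcinomas at 10.33, 13.15 and 9.90 lay above all 6 adenomas and the carcinoma at 7.03 among them. The call was lost in 15 of 35 alternatives, with a change of 3.23 (adjusted p = 0.929) under the control set as the block and of 3.44 (adjusted p = 0.61) in a fit of these 2 groups alone. Leaving out carcinoma replicate 1 or 4, adenoma replicate 1, 4, 5 or 6, nodule replicate 1, 2 or 5, β-catenin carcinoma replicate 2, 3 or 4, or surrounding replicate 7 also ended it. It held without carcinoma replicate 3 (3.34, adjusted p = 0.0484).

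Between adenomas and nodules no member was called by limma, and 0% of all genes were, although 6 of the 9 members (Cyp8b1, Slc27a5, Baat, Slc10a1, Abcb11 and Nr1h4) and 2265 genes in all had an unadjusted p under 0.05. All 9 estimates were below 0, with a median of -0.61. Only rat 14 gave both nodules and adenomas, so with the rat in the model few arrays compare these kinds directly. The absence of calls therefore does not show that the kinds are alike. Without the rat in the model Slc27a5 (-2.72, adjusted p = 0.021) and Slc10a1 (-1.12, adjusted p = 0.0291) were called lower in adenomas. Between β-catenin carcinomas and other carcinomas no member was called, 0% of all genes were, and 0 of the 9 members and 723 genes had an unadjusted p under 0.05. For Slc27a5 the difference was -0.60 with a 95% interval of -2.14 to 0.93, and for Abcb11 -0.07 with an interval of -0.45 to 0.31. Without β-catenin carcinoma replicate 1 these 2 differences were -0.15 and 0.03, that of Cyp7a1 was 0.96 in place of -0.08, that of Cyp8b1 -0.14 in place of -0.98 and that of Nr0b2 -0.66 in place of -0.09, and none was called. Between FFPE adenomas and foci none was called, 0% of all genes were, and 2 members (Cyp27a1 at 0.45 and Nr0b2 at -0.60) and 633 genes had an unadjusted p under 0.05. Without FFPE adenoma replicate 5 Cyp8b1 was called higher in FFPE adenomas than in foci (1.78, adjusted p = 0.00807). No other gene was called in that fit, which left out the lowest Cyp8b1 value of the group, 6.38.

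The adenoma change itself was compared between preparations in a joint fit. None of the 9 members was called, and 0.295% of all genes were. The estimated change was lower in frozen than in FFPE tissue for 8 of the 9. Slc10a1 had the lowest unadjusted p of the members, with a change 1.11 ± 0.38 further below 0 in frozen than in FFPE adenomas (-1.11, 95% interval -1.87 to -0.35, adjusted p = 0.168). For 2 tumours of rat 14, named T4 and T5, both preparations were measured. Relative to its own control, T5 lay further below than T4 in both preparations for Cyp7a1 (-3.39 frozen and -1.44 FFPE, against -0.06 and 0.45 in T4). The same held for Cyp8b1 (-4.75 and -1.68, against -1.06 and -0.87) and for Slc27a5 (-4.95 and -1.81, against -0.71 and -1.06). Slc10a1 stood at -1.62 and -1.12 in T5, against -0.79 and -0.70 in T4. Abcb11 did not keep this order, at -1.25 and -0.67 in T5, against -0.78 and -0.84 in T4, and nor did Nr0b2, at 0.10 and -0.08 in T5, against -0.35 and 0.44 in T4. The FFPE array of T5 is the one whose source name reads surrounding tissue.

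Lesions differed in how many members lay well below their control. The count of members more than 1 log2 unit below the control was 7 in β-catenin carcinoma replicate 1 (all but Baat and Nr0b2), 4 or 5 in 5 of the 6 frozen adenomas, and 0 in the nodules of rats 11 and 14. In that same β-catenin carcinoma Nr0b2, at 9.71, was 1.52 above its control and the highest of the frozen arrays compared. Its Glul, a target of β-catenin signalling in liver, was 9.26, against 12.96 to 13.32 in the other 3 β-catenin carcinomas. In the 4 carcinomas without the mutation label Glul read 13.02, 9.56, 12.69 and 10.39. Without this array the changes of Slc27a5, Baat, Slc10a1, Abcb11 and Nr1h4 in β-catenin carcinomas were -2.71, -0.57, -2.03, -1.03 and -0.54, all still called (adjusted p = 0.0169, 0.0141, 0.000388, 0.000827 and 0.0122). Cyp7a1 and Cyp8b1 were together more than 1 below control in 6 of 19 frozen lesions, Cyp8b1 without Cyp7a1 in 5 and Cyp7a1 without Cyp8b1 in 1. In the 14 FFPE lesions these counts were 6, 5 and 1. The share of all genes lying more than 1 below control in each lesion was not counted. The counts therefore describe the members and do not set them apart from other genes.

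Other genes of the pathway were followed in 3 lists, 16 of 18 listed genes of synthesis, 15 of 16 of transport and 13 of 16 of regulation being measured. The share of all genes called lower was given above for each comparison, and the share called higher was 15.4% in frozen adenomas, 4.48% in carcinomas, 7.74% in β-catenin carcinomas, 1.81% in foci and 1.29% in FFPE adenomas. In the synthesis list 6 fell and 1 rose in frozen adenomas, 6 fell in carcinomas, 5 in β-catenin carcinomas, and 1 each in foci and FFPE adenomas. The medians of the list were -0.23, -0.36, -0.14, -0.24 and -0.36, and in nodules, where none was called, -0.03. Amacr, the racemase of the side chain, fell in frozen adenomas (-1.64, adjusted p = 0.000423), foci (-1.32, adjusted p = 0.00365) and FFPE adenomas (-1.16, adjusted p = 0.0349). Acox2, the peroxisomal oxidase of the next step, fell in adenomas (-1.13, adjusted p = 3.83e-05) and carcinomas (-0.52, adjusted p = 0.0405), and Abcd3, a peroxisomal transporter, in carcinomas (-0.82, adjusted p = 0.00156) and β-catenin carcinomas (-0.84, adjusted p = 0.000491). In adenomas the ring-modifying enzymes Akr1c14 (-0.92) and Hsd3b7 (-0.75) and the 24-hydroxycholesterol 7α-hydroxylase Cyp39a1 (-0.77) fell, and the cholesterol 25-hydroxylase Ch25h rose (0.79, adjusted p = 0.0144). Cyp7b1, the oxysterol 7α-hydroxylase of the alternative route, fell in β-catenin carcinomas (-0.58, adjusted p = 0.031). Signals of Ch25h and Cyp7b1 were low, with means of 4.45 and 3.58 log2 in frozen surrounding liver. Both lay below the array medians of 5.49 to 5.59, so these 2 calls rest on values near the floor.

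In the transport list 6 fell in frozen adenomas, 5 in carcinomas, 5 in β-catenin carcinomas where 2 rose, 2 in foci where 2 rose, and 2 in FFPE adenomas where 1 rose. The medians were -0.10, -0.32, 0.00, -0.16 and -0.24, and -0.15 in nodules, where none was called. Like Slc10a1, the sinusoidal organic anion transporters fell: Slco1a4 changed by -1.73, -2.28 and -1.90 in adenomas, carcinomas and β-catenin carcinomas and by -1.40 in FFPE adenomas. Slco1a1 changed by -2.14, -1.58 and -1.37 in the frozen tumour groups, Slco2b1 by -0.91, -0.99 and -1.18, and Slco1b2 by -2.54 in adenomas and -0.92 in foci. Fabp1, the liver fatty acid binding protein, fell in 5 lesion groups, from -0.63 in foci to -1.50 in β-catenin carcinomas. Abcb4, the canalicular phospholipid floppase, fell in the 3 frozen tumour groups (-0.45, -0.90 and -0.52).

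The members of the transport list that rose were Abcc2 and Abcc3. Abcc2, a canalicular exporter of conjugates, rose in β-catenin carcinomas (0.70, adjusted p = 0.0218) and foci (0.81, adjusted p = 2.99e-05). Abcc3, its basolateral relative that returns conjugates to blood, rose in β-catenin carcinomas (0.62, adjusted p = 0.0199), foci (0.63, adjusted p = 0.0155) and FFPE adenomas (0.63, adjusted p = 0.0417).

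In the regulation list 6 fell in adenomas, 1 fell and 1 rose in carcinomas, 2 fell and 1 rose in β-catenin carcinomas, 1 fell and 1 rose in foci, and 2 fell in FFPE adenomas. The medians were -0.22, -0.18, -0.17, -0.21 and -0.21, and -0.10 in nodules, where none was called. Onecut1 (HNF6) fell in all 5 of these groups, with changes of -1.60, -2.81, -2.45, -1.11 and -1.39. Nr1i3 (CAR), the receptor through which phenobarbital acts on liver, rose in carcinomas (0.57, adjusted p = 0.0157), β-catenin carcinomas (1.13, adjusted p = 2.96e-05) and foci (0.72, adjusted p = 0.0155). In frozen adenomas Nr1i2 (PXR, -0.96), Rxra, the partner of FXR (-0.84), Fgfr4, the receptor of the intestinal signal Fgf15 (-0.81), Prox1 (-0.55) and Hnf4a (-0.24, adjusted p = 0.0414) fell. Nr1i2 also fell in FFPE adenomas (-0.75) and Prox1 in β-catenin carcinomas (-0.42). Nr1i2 and Rxra were higher in carcinomas than in adenomas (0.78 and 0.85, adjusted p = 0.0414 and 0.042), where 1.17% of all genes were higher. With the control set as the block no gene was called in that comparison, so both calls were lost.

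**Figure D4:**
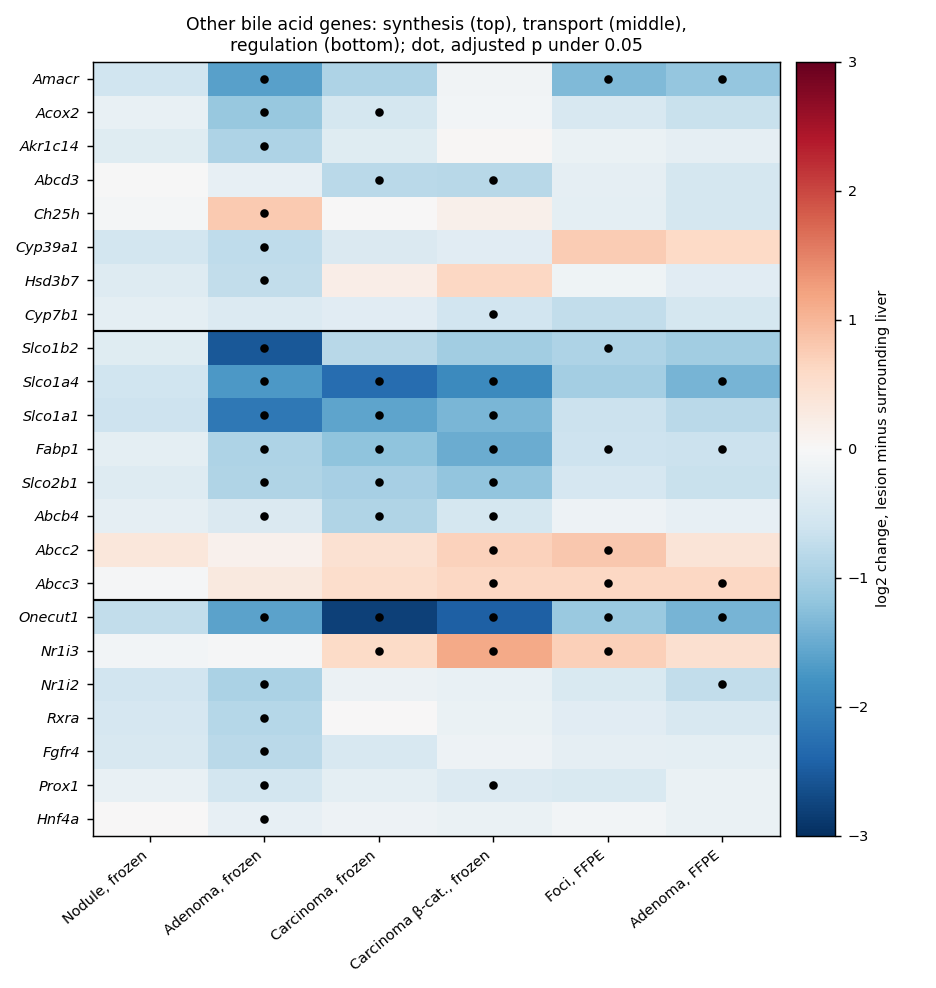
Fitted log2 change, lesion minus surrounding liver, of the other bile acid genes named (rows, in 3 lists) in 6 comparisons (columns); dots mark an adjusted p under 0.05. The nodule column holds no dot, Onecut1 has 5, and Abcc2, Abcc3 and Nr1i3 are the rows with more than 1 call above 0.

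Markers of other cells and of liver zones moved with these groups, and their part in the results was not tested. Of all genes, 9.57% fell and 15.4% rose in frozen adenomas, 6.91% and 4.48% in carcinomas, and 9.58% and 7.74% in β-catenin carcinomas. The mean of 5 measured cholangiocyte markers (of 8 listed) ran from 6.51 to 9.11 log2 in frozen adenomas, against 5.59 to 6.36 in surrounding liver, and 2 of the 5 rose (Krt19 by 4.37 and Epcam by 1.40). Krt19 ran from 7.69 to 11.14 in adenomas, 4.16 to 8.42 in carcinomas and 3.83 to 9.72 in β-catenin carcinomas, against 4.58 to 7.64 in surrounding liver. In carcinomas and β-catenin carcinomas 0 of the 5 were called by limma, with median changes of 0.33 and 0.55. Their mean ran from 5.43 to 6.57 in carcinomas and from 5.39 to 8.46 in β-catenin carcinomas. Of 9 macrophage markers 3 fell in adenomas, 3 in carcinomas and 5 in β-catenin carcinomas. Of 9 hepatocyte markers measured 3 fell and 1 rose in adenomas, 2 fell in carcinomas and 4 in β-catenin carcinomas. Their mean ran from 13.31 to 13.67, 13.11 to 13.62 and 12.67 to 13.70 in these groups, against 13.69 to 13.96 in surrounding liver.

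Of 9 pericentral markers, which include Cyp2e1 and Glul, 6 fell in frozen adenomas, 1 in carcinomas and none in β-catenin carcinomas, where 2 rose. Of 7 periportal markers 5, 4 and 5 fell. In foci, where 1.36% of all genes fell and 1.81% rose, 3 of the 9 macrophage and 2 of the 9 hepatocyte markers fell, 1 hepatocyte marker and 3 of 10 stellate cell markers rose, and 0 of the 5 cholangiocyte markers were called by limma. In FFPE adenomas, where 0.872% fell and 1.29% rose, 2 of the 5 cholangiocyte markers (Krt19 by 2.53 and Epcam by 0.93), 3 of the 10 stellate cell markers and 1 hepatocyte marker rose and 1 hepatocyte marker fell. The mean of the cholangiocyte markers ran from 5.52 to 6.80 in foci and 5.93 to 6.74 in FFPE adenomas, against 5.18 to 5.59 in FFPE surrounding liver. That of the stellate cell markers ran from 6.08 to 7.34 and 6.78 to 7.30, against 6.16 to 6.73. In FFPE foci 4 of the 9 pericentral and 6 of the 7 periportal markers fell, and in FFPE adenomas 2 and 3.

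Among all 14217 genes, those whose centred values stayed nearest to each member over the 26 frozen arrays were found by the root mean square difference, in log2 units, which is a description without a test. For Slc27a5, whose own SD was 1.86, they were Avpr1a (0.605), the vasopressin receptor of hepatocytes, and Fgl1 (0.774), a secreted hepatocyte protein. For Cyp7a1 (own SD 1.21) they were the pericentral Cyp2e1 (0.655) and the transcription factor Irx1 (0.677), and for Cyp8b1 (1.83) Irx1 (1.09) and Sat2 (1.14). For Slc10a1 (0.934) they were Ttc36 (0.355) and Id4 (0.386), for Abcb11 (0.61) Epb41l5 (0.293) and Mmaa (0.321), and for Nr1h4 (0.353) St6gal1 (0.175) and Cdip1 (0.185). For Baat (0.339) they were Prox1 (0.183) and C8a (0.191). For Cyp27a1 (0.436) the nearest genes were at 0.262 and 0.263 (Ubxn2a and Ung) and for Nr0b2 (0.585) at 0.41 and 0.436 (Nfx1 and Jade1). No member was among the 2 genes nearest to another member. The closest in rank was Cyp7a1, 6 places from Cyp8b1.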

How the data were processed

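RNA of 44 tissue samples was compared on Affymetrix rat arrays of a single colour. The authors deposited log2 values per probe set, which were used unchanged. How they were background-corrected and normalized is not stated in the labels. RNA came from frozen tissue by TRIzol and a miRNeasy kit and from FFPE tissue by a kit for such tissue, per the labels' protocols. The numbers of arrays and rats limit the precision. Each lesion group came from 2 or 3 rats, and the model holds each rat as a single shift. The errors and adjusted p therefore rest on lesions and do not show how far the changes extend to other rats.

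Of 31042 probe sets, 20826 with a single symbol were kept, and 436 with several and 9780 with none were left out. Each of 14217 genes was read from its brightest probe set on average in each preparation. The fit (limma 3.58.1, R 4.3.3) took frozen arrays (17 residual degrees of freedom) and FFPE arrays (12) separately, with group and rat as fixed terms and an intensity trend. Calls needed an adjusted p (Benjamini-Hochberg over 14217 genes) under 0.05. The fits were tested on simulated data. Changes are adjusted for the rat and so differ from differences of group means. A joint fit of both preparations had 30 residual degrees of freedom.

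The rat pairs the samples, since the titles place lesions and surrounding liver in the same animals. Arrays' departures from their group's mean correlated, in the median, at 0.127 among 50 within-rat pairs of frozen arrays (28 above 0.1) and 0.11 among 23 of FFPE arrays (15 above 0.1), against -0.025 and -0.0395 between rats. The rat was read from the title, because another field of the labels numbers the samples of rat 21 differently. The 3 arrays named C43 normal entered no comparison.

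Members and lists were chosen with earlier results of these data known. Named were all 9 members, up to 8 genes per pathway list by size of change among those called against surrounding liver, and the 2 genes nearest to each member. Alternatives were fits without the rat, with the rat as a random block or the control set as the block, of 2 groups alone, without the intensity trend, after quantile normalization, with other choices of probe sets, with a floor on low values, with array weights, and without each array in turn.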

Additional observations from a re-analysis of the deposited data

Results flagged for a closer look

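Single arrays stood apart from their group, by Dixon's gap criterion at its 95% level, in 6 of 72 combinations of gene and group, where chance gives about 5% of combinations. Cyp7a1 was 8.14 log2 in β-catenin carcinoma replicate 1, with the nearest array of the group at 10.92. Cyp8b1 was 9.84 in frozen adenoma replicate 2 (nearest 7.06) and 6.38 in FFPE adenoma replicate 5 (nearest 10.2), an array in which Cyp27a1, at 11.67, was above the others (nearest 11.02). Slc10a1 was 11.39 in nodule replicate 4 (nearest 11.69), and Nr0b2 was 10.18 in foci replicate 1 (nearest 9.28).

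The 3 arrays named C43 normal, labelled as surrounding tissue but outside the comparisons, exceeded the highest surrounding array of their preparation in 5 of 27 values. The 3 arrays share 1 animal name, and the share of all genes doing so was not counted. The values are therefore a description without a test. In the FFPE array these were Baat at 12.12 (highest surrounding 11.68), Slc10a1 at 12.33 (11.94), Nr0b2 at 8.77 (8.6) and Nr1h4 at 9.31 (9.15). In frozen replicate 1 it was Abcb11 at 11.43 (11.42).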

How the results depend on the processing

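Each called member change met 35 or 36 alternatives in frozen tissue or 27 in FFPE tissue, each array of that preparation left out in turn among them. Of the 24 called member changes, 14 stayed called throughout and 10 were lost at least once. Array weights entered only the joint fit. With 1 probe set per member, other choices of probe sets left the members' own values unchanged. None reversed while called. The replicate block, the rat, mattered most between lesion kinds: without it 2 members were called between adenomas and nodules (Slc27a5 and Slc10a1, among 437 of 14217 genes; also 2, among 265 genes, with the rat as a random block), 2 between carcinomas and adenomas (Cyp8b1 and Abcb11, at -0.75, among 2322 genes), and 1 in FFPE adenomas (161 genes). In frozen adenomas Abcb11 was then lost and Cyp27a1 gained. With the control set as the block 3 members were called in carcinomas (904 genes) and 0 between carcinomas and adenomas, where 0 of all genes were called, and a fit of the 2 groups alone also gave 0 members among 19 genes. Restricting surrounding liver to the control sets of the carcinomas, an alternative chosen after seeing the data, left 3 in carcinomas among 669 genes (Slc27a5 -2.68, adjusted p = 0.0863). Without the intensity trend 2 members were called in foci (233 genes) and 1 in FFPE adenomas (137 genes). The cause of these changes was not tested.

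Leaving out single arrays gave 5 to 7 members called in adenomas, 2 to 5 in carcinomas (2 without carcinoma replicate 4, 3 without carcinoma replicate 1 or surrounding replicate 5), 5 in β-catenin carcinomas and 0 in nodules. It gave 2 to 4 in foci (2 without FFPE surrounding replicate 1 or 4) and 1 to 4 in FFPE adenomas (1 without FFPE surrounding replicate 1, 2 or 4, 4 without adenoma replicate 1). Between lesion kinds it gave 0 to 2 for adenomas against nodules (2 without adenoma replicate 2), 0 to 1 for carcinomas against adenomas, 0 for β-catenin carcinomas against carcinomas, and 0 to 1 for FFPE adenomas against foci (1 without FFPE adenoma replicate 5). The difference between preparations stayed at 0. Over all genes, 1301 were called in carcinomas without carcinoma replicate 3 and 2323 in β-catenin carcinomas without replicate 1. Without carcinoma replicate 3, 351 were called between carcinomas and adenomas. In FFPE adenomas 196 were called without replicate 4. Without FFPE adenoma replicate 5, Cyp8b1 was the only gene called between FFPE adenomas and foci. For the other fits the counts over all genes are not given here.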
